A study of Mus musculus with 4 samples.

Results

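The regions described here are those bound in p53 chromatin immunoprecipitation (IP) whose IP signal was lower by 1 or more on the log2 scale, or 2-fold, in mouse embryonic stem cells treated with adriamycin than in untreated cells. They numbered 373 of the 9004 regions bound in either condition, or 4.14%. Of these, 204 lay among the 4434 bound regions of the first promoter array design, or 4.6%, and 169 among the 4570 of the second, or 3.7%. On the same measure 1961 bound regions, or 21.8%, were higher by 1 or more, 21.6% on the first design and 21.9% on the second. The regions were chosen by the measured difference between the conditions and by their level in either, so their levels and differences are a description and carry no test.

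All chromatin came from R1E cells, a mouse embryonic stem cell line, cultured for 8 h with 1000 units/ml of leukaemia inhibitory factor. One group received no drug and the other 0.5 µM adriamycin over those 8 h. Both were fixed with 1% formaldehyde, sonicated, and precipitated with 10 µg of a p53 antibody. IP and input DNA went through ligation-mediated PCR before labelling, Cy5 for IP and Cy3 for input, and no array had the dyes exchanged. Each condition was hybridised to 1 array of each design, which gave 4 arrays with no replicate. There is therefore no p-value here, and the precision is limited by the number of arrays. No slide carried both conditions, so a slide effect and a treatment effect cannot be told apart. The labels name no cells without p53 and no precipitation with a control antibody, so a bound region means IP signal above input and no more.

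p53 is a transcription factor that binds DNA as a tetramer. DNA damage stabilises it, largely by releasing it from Mdm2, the ubiquitin ligase that keeps its level low. Adriamycin, also called doxorubicin, intercalates into DNA and traps topoisomerase II on it, which leaves double-strand breaks. In embryonic stem cells p53 is known both for activating damage-response genes and for repressing genes that maintain pluripotency. The design text gives the aim as locating p53 binding sites with and without this damage.

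The level used throughout is the log2 ratio of IP signal over a common input, set relative to the array median, so that 0 is the typical probe and 1 is 2-fold above it. The common input is the mean of the input channels of both arrays of a design, and a difference between conditions is therefore the difference between the IP channels alone. A region was bound where 3 neighbouring probes within 1000 bp averaged at least 1 and 2 of them reached 1. Each region is described by its best window, the 3 probes with the highest mean over both arrays. The standard deviations (SD) given are over those 3 probes, which are not replicates. Positions are those of the array design. Their genome build is not stated in the labels or headers, and no gene or sequence was assigned to them.

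In untreated cells the 373 best windows stood at a median log2 level of 1.24, with a range from 1.00 to 5.25. With adriamycin their median level was 0.01, with a range from -1.53 to 4.23. The differences ran from -2.75 up to the cut with a median of -1.23, against a median of 0.30 over all 9004 regions. Most of the regions were thus weak in untreated cells and at the level of the typical probe after treatment. In 283 regions, or 75.9%, the untreated level was under 1.5, compared with 73.0% of all bound regions. The latter include regions bound with adriamycin alone. In 182, or 48.8%, the adriamycin level was below 0, compared with 2.02% of all bound regions, a contrast that the choice of regions nearly fixes. All 373 passed the binding rule in the untreated array, 330 of them in that array alone, and the other 43 were still bound with adriamycin at some window of the region.

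The share of all bound regions that were lower, 4.14%, was near that of windows where no binding was called, but the 2 are not like for like. All 373 lower regions were among the 5291 regions bound in the untreated array, so their share of those is larger. A region counts once, by its best window, while never-bound windows overlap and fail the binding rule in both arrays. Among 327397 windows never bound in either array, 11497 were lower by 1 or more, or 3.51% (3.87% on the first design and 3.15% on the second). In those windows the difference between the arrays had an SD of 0.52 on the first design and 0.49 on the second. Regions depleted in the IP, found by turning the sign of the binding rule, were less depleted by 1 or more with adriamycin in 789 of 11074 cases, or 7.12% (8.2% and 5.94% by design). The 21.8% of bound regions that were higher cannot be set against these shares, since the share of never-bound windows that were higher was not taken. Of the 1961 higher regions, 489 were bound in the untreated array, and all were bound in the adriamycin array.

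**Figure D1:**
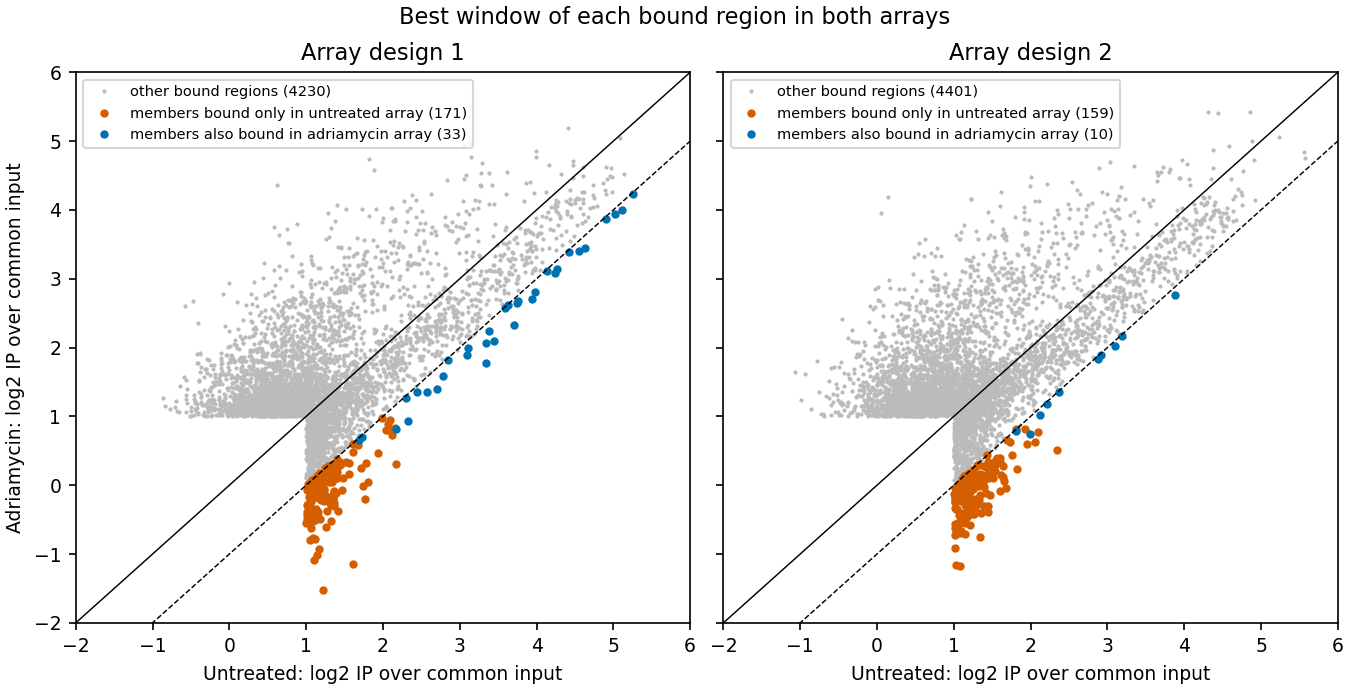
Level of the best window of each bound region (log2 IP over common input) in the untreated array, on the horizontal axis, and the adriamycin array, on the vertical axis, for both array designs; the solid line marks equal levels and the dashed line a difference of -1. The 330 regions bound in the untreated array alone gather at untreated levels just above 1, and the 43 still bound spread along the dashed line up to 5.25.

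The cut at -1 fell within a continuous range of values. Just inside it, chr4:102570431-102570936 went from 1.18 ± 0.59 (SD over 3 probes) to 0.18 ± 0.79, chr11:68205589-68207726 from 1.81 ± 0.60 to 0.81 ± 0.36 and chrX:101551439-101552440 from 1.43 ± 1.66 to 0.43 ± 1.19. Just outside it, chr2:127053838-127056190 went from 2.96 ± 0.87 to 1.96 ± 0.33, chr4:9601164-9601514 from 1.33 ± 0.86 to 0.33 ± 0.53 and chr11:77277925-77278953 from 1.87 ± 0.35 to 0.87 ± 0.52. All 6 differences equal -1 to the second decimal.

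The probes within a window differed in how far they moved. Each of the 3 was lower by at least 1 in 55 regions, or 14.7%. The SD of the difference over the 3 probes had a median of 0.71, against 0.44 over all bound regions. All 3 probes were below 0 in difference in 339 regions, or 90.9%, a number that the choice of windows by their mean nearly fixes. Spots near the detection limit were common. At least 1 of the 6 IP spots of the window was not well above background in 169 regions, or 45.3%, compared with 6.91% of all bound regions. For the 6 input spots the number was 140, or 37.5%, compared with 8.42%. No window held a saturated spot. In 175 regions all 12 spots were well above background, and in 20 of those each probe was also lower by at least 1.

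Of those 20 regions, the 10 with the largest differences lay on 8 chromosomes and were 346 to 839 bp wide. The first was chr6:99233681-99234154, a region of 4 probes. Its 3 window probes read 1.30, 1.03 and 1.33 in untreated cells and -0.77, -2.47 and -1.34 with adriamycin, a difference of -2.75 ± 0.71 (SD over 3 probes). The spots themselves were dim. Their IP medians above the local background were 59, 25.5 and 29 fluorescence units untreated and 13, 3.5 and 7 with adriamycin. The 9 probes within 1000 bp of the region had mean levels of 0.02 and -0.35, so its neighbours differed by less, and the window probes of both arrays did not overlap.

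The next was chr5:75326653-75327491. Its probes read 1.03, 0.91 and 1.37 untreated and -1.10, -1.09 and -1.07 with adriamycin, a difference of -2.19 ± 0.22. The input of this window was also lower with adriamycin, at -0.74 against 0.34, and the difference against each array's own input was -1.08. From the second design, chr10:25918213-25918558 read 0.28, 1.52 and 1.28 untreated and -1.56, -1.85 and -0.07 with adriamycin, a difference of -2.18 ± 1.05. Each of its 3 probes was higher in the untreated array by more than 1.

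The highest untreated level of the 10 was at chr7:119352575-119353260, whose probes read 0.93, 2.05 and 3.52 untreated and -0.14, 0.11 and 0.93 with adriamycin. The difference was -1.87 ± 0.76. Here the input moved the other way, from -2.39 to -1.09, and the difference against each array's own input was larger, at -3.14. A pair of regions on chromosome 14 had differences of -1.68 ± 0.77 at chr14:22085501-22085860 and -1.65 ± 0.39 at chr14:49047153-49047606. In both the raw change was small. The mean IP medians above local background of the 3 spots went from 10.2 to 8.67 units at the first and from 12.8 to 10.7 at the second, while the array's median over all probes rose from 37 to 65. The remaining 4 regions, on chromosomes X, 18, 8 and 5, had differences between -1.61 and -1.54. Apart from chr7:119352575-119353260, all 10 had untreated levels between 1.02 and 1.26, just above the binding threshold.

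**Figure D2:**
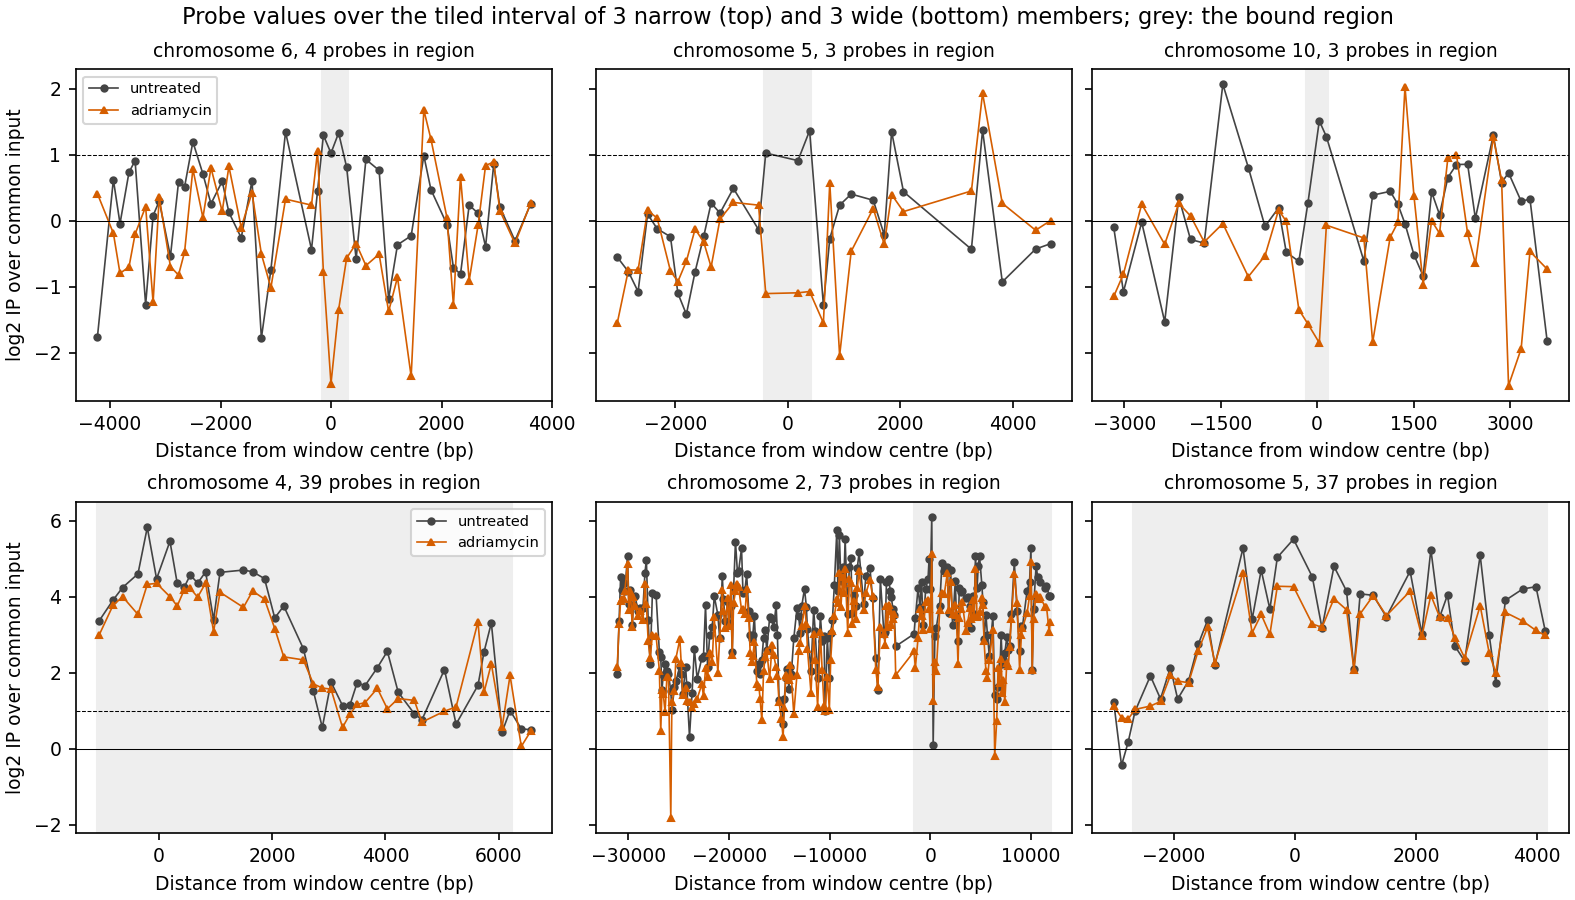
Levels of single probes (log2 IP over common input) against the distance from the centre of the best window, over the whole tiled interval, in untreated (grey circles) and adriamycin (orange triangles) arrays; grey shading marks the bound region and the dashed line the binding threshold of 1. In the top row are the first 3 narrow regions, of 4, 3 and 3 probes, where a few probes separate; in the bottom row are the 3 with the highest untreated levels, of 39, 73 and 37 probes, where both arrays keep the same broad shape and the adriamycin array runs slightly lower.

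Without a filter on dim spots the largest difference was at chr8:47434490-47434855. Its probes read 1.02, 0.94 and 2.85 untreated and -1.96, -1.04 and -0.43 with adriamycin, a difference of -2.75 ± 0.67, with 1 of 6 IP spots not well above background. The third largest, chrX:131612785-131613421, was carried mostly by 1 probe. Its probes read 2.12, 1.05 and 0.07 untreated and -2.58, -0.21 and -0.74 with adriamycin, and 3 of its 6 IP spots were not well above background. The input of that window dropped as well, from -1.36 to -4.16, and against each array's own input the difference was positive, at 0.58.

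Dim input was common among the 373 regions. Their median input level was -2.55 in the untreated array and -1.96 in the adriamycin array, on the log2 scale relative to each array's median, against 0.70 and 0.91 over all bound regions. Mean input was below -1 in 282 of them, or 75.6%, compared with 16.3% of all bound regions, and below -2 in 214, or 57.4%, compared with 10.4%. The share that was lower followed input brightness. On the second design it was 46.6% of the 193 bound regions with input under -3, 22.6% of the 177 between -3 and -2, 7.94% of the 252 between -2 and -1, and at most 0.750% of the brighter ones. On the first design it was highest, at 20.6% of 247 regions, between -3 and -2, and 10.3% of 321 under -3. Never-bound windows followed the same gradient on the second design, with 18.8% lower under -3 and 0.199% at 1 or more. On the first design they did not: 1.98% were lower under -3, and the highest share was 7.89% between -2 and -1.

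**Figure D3:**
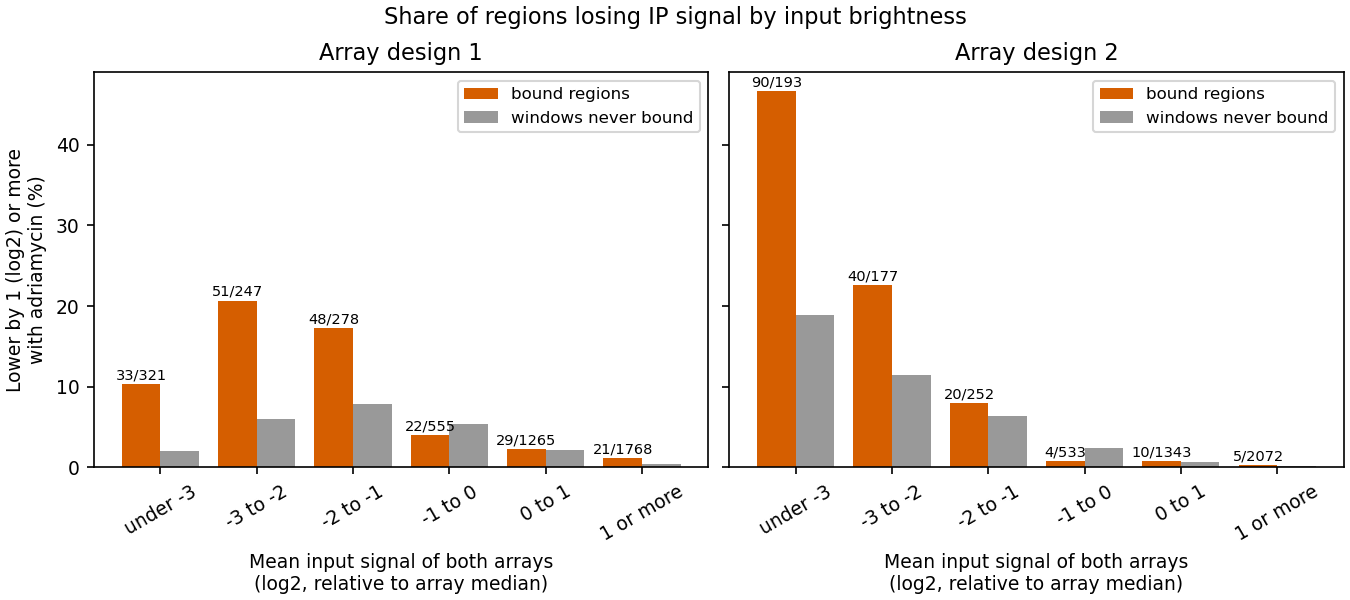
Share of bound regions (orange) and of never-bound windows (grey) that were lower by 1 or more with adriamycin, in percent, by mean input level of both arrays (log2 relative to the array median), for both array designs; numbers above the orange bars are lower regions over bound regions. On the second design the share of bound regions goes from 46.6% at the dimmest input to 0.241% at the brightest.

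Probe length moved with the same set. The mean length of the 3 probes was 60 bases, the longest on these arrays, in 155 of the 373 regions, or 41.6%, compared with 8.55% of all bound regions. It was under 48 bases in 15, or 4.02%, compared with 36.5%. For 60-base probes of the second design, 30.5% of the 292 bound regions were lower, and none of the 933 with 45-base probes. The parts of probe length, input brightness and p53 signal in these differences were not tested.

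Control spots without a genomic target were also lower relative to the array median on the second design. The 1275 negative control spots there had a median IP signal of -4.02 relative to the array median in the untreated array and -4.89 in the adriamycin array, a shift of -0.87. On the first design their medians were -3.51 and -3.53. Over all probes the median IP spot went from 37 to 65 units above local background on the second design. On the first it went from 24.5 to 26.5. How much of the shift lies in the array median was not tested. In 42 of the 169 second-design regions, or 24.9%, the mean IP spot median above local background was no lower with adriamycin than without. In these 42 the difference arose relative to the brighter array. Over all bound regions of that design the share was 94.5%. On the first design it was no lower in 4 of 204 regions, or 1.96%, compared with 68.1% of all bound regions there. The median over the regions went from 15.8 to 12.2 units on the second design and from 22.5 to 11.2 on the first.

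The 330 regions bound in the untreated array alone were narrow, with a median width of 503 bp and 3 probes. Of all 373, 223 consisted of exactly 3 probes, the fewest the rule allows, or 59.8%, compared with 26.8% of all bound regions. Their surroundings were at the level of the typical probe. The probes within 1000 bp of these 330 had a median level of -0.03 untreated and -0.23 with adriamycin. In 183 of the 330, or 55.5%, the window lay nearer to an end of its tiled interval than to the middle, compared with 44.1% of all bound regions. Among the regions higher with adriamycin the share was alike, at 53.7%.

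Several of these narrow regions lay close together. Of the 373, 67 had another of the set within 100 kb, or 18.0%, compared with 5.92% of the other 8631 bound regions that had a lower region at that distance. Runs of 3 or more with gaps of at most 200 kb numbered 10. The longest run was chr9:37968507-38523949, where 8 of 12 bound regions were lower and 1 was higher. Next were chr10:128723508-129204037, with 6 of 10, and chr17:37220202-37411852, with 6 of 7, and neither held a higher region. All 20 regions of these 3 runs had at least 1 spot not well above background, and none was still bound with adriamycin.

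The 8 regions of the run on chromosome 9 stood at untreated levels of 1.08 to 1.74 and at adriamycin levels of -0.21 to 0.63. The strongest difference, -1.70, was at chr9:38523543-38523949, with levels of 1.61 and -0.09. The lowest IP signals were at chr9:38345563-38345912, where 1 of 6 IP spots was well above background and the levels were 1.1 and -0.02. The median input level was -3.80 in this run, -3.57 in that on chromosome 10 and -3.81 in that on chromosome 17, and the median probe length was 60 bases in all 3. In all 10 runs the median probe length was 55 bases or more and the median input level was below -2. These runs were picked out after their values were seen.

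Within a single tiled interval, 11 pairs of lower regions were found, and no interval held more than 2. At chrX:40614684-40615367 and chrX:40616903-40617298 the levels went from 1.01 to -0.63 and from 1.65 to 0.06. At chr16:88770170-88770782 and chr16:88771547-88771901 they went from 1.07 to -0.54 and from 1.03 to -0.68. In these 2 pairs the adriamycin levels were near or below the typical probe, while at chr11:96076182-96078143 and chr19:13717323-13718698, each from another pair, they were 0.74 and 0.77. A region higher with adriamycin shared the tiled interval in 18 of 373 cases, or 4.83%, compared with 9.22% of the 6670 bound regions that changed by less than 1.

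By chromosome, the share that was lower ranged from 1.06% on chromosome 15 and 1.36% on chromosome 11 to 6.96% on chromosome 6 and 9% on chromosome X. On X, 36 of 400 bound regions were lower, compared with 130 of 4166, or 3.12%, on the autosomes of the same design. Input on X was dimmer, with a median of -0.78. At matched dim input the order turned around. Under -3, 30.6% of 72 regions on X were lower and 55.5% of 119 on autosomes, between -3 and -2 it was 20.4% of 54 and 23.0% of 122, and between -2 and -1 it was 3.33% of 60 and 9.38% of 192. Only 1 region on X with brighter input was lower. On Y, 3 of 4 bound regions were lower. The only one of the 3 with all 6 IP spots well above background was chrY:132192-132657, whose probes read 2.28, 1.04 and 1.35 untreated and 0.94, -0.07 and 0.33 with adriamycin.

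The 43 regions still bound with adriamycin were of another kind. They were mostly wide, with a median of 3348 bp and 19 probes, and mostly well above the binding threshold, with a median level of 3.34 untreated and 2.07 with adriamycin. Their input had medians of 0.83 and 0.51, against -2.73 and -2.18 for the 330 bound in the untreated array alone. Beside the medians of all bound regions given above, the untreated one was slightly higher and the adriamycin one lower. In 41 of the 43 all spots were well above background. At least 1 spot was not in 4.65% of them, compared with 9.83% of all bound regions. The differences were small beside these levels and ran from -1.57 to -1.01. Of the 43, 33 were on the first design and 10 on the second.

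The highest level was at chr4:139102848-139110150, a region of 39 probes. Its window probes read 5.83, 4.47 and 5.46 untreated and 4.33, 4.35 and 4.0 with adriamycin, a difference of -1.03 ± 0.79. The middle probe hardly differed. Over the whole region 32 of 39 probes were lower, 8 of them by 1 or more, and the median difference was -0.35. The widest region, chr2:74487432-74501023, spanned 13592 bp with 73 probes. Its window probes read 5.01, 4.21 and 6.11 untreated and 3.68, 3.16 and 5.14 with adriamycin, a difference of -1.11 ± 0.19, and over all 73 probes the median difference was -0.46. Its 3 window probes fell by like amounts, and the region as a whole by less.

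In the next 3 by untreated level the region as a whole also fell by less than its window. At chr5:58001923-58008754 the level was 5.03 ± 0.49 untreated and 3.94 ± 0.57 with adriamycin, with a median difference of -0.32 over its 37 probes. At chr5:147495333-147501491 it was 4.91 ± 0.21 and 3.86 ± 0.67, with a median of -0.27 over 32 probes. At chr4:109471479-109478486 it was 4.63 ± 0.52 and 3.44 ± 0.33, with a median of -0.23 over 42. With the mean over all probes of a region in place of the best window, 1 of the 43 was still lower by 1 or more. Bound regions over 5000 bp wide had a median difference of -0.46 on the first design and -0.40 on the second, so wide regions as a class ran below 0 whether or not they passed -1.

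In most of the 43 regions the input was lower with adriamycin too. Of the 43, 5 had a higher input with adriamycin, compared with 67.8% of all bound regions. Against each array's own input the difference was -0.73 at chr4:139102848-139110150, -0.93 at chr2:74487432-74501023, -0.24 at chr5:58001923-58008754 and -0.02 at chr4:109471479-109478486. It was 0.12 at chr2:38168080-38176105, where the level over the common input went from 4.26 to 3.14. At chr4:153477911-153486109, also among the 5 widest, the input was slightly higher with adriamycin, at 0.70 against 0.57, and the difference was -1.03 over the common input and -1.14 over each array's own. Of the 43, 12, or 27.9%, stayed lower by 1 or more against their own input, and of the 330 it was 250, or 75.8%. Over all bound regions the share was 11.8%, a contrast that the choice of regions favours.

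Place on the slide moved with the difference on the first design. Spots were placed by column into 6 vertical strips from left to right. Over all probes of the first design, the median difference of the IP channel between the arrays was -0.36, -0.34, -0.10, 0.16, 0.19 and 0.37 in those strips. Across the second design it stayed between -0.10 and 0.09. The spots of the lower regions followed this slope. On the first design 22.4%, 25.2% and 23.7% of their spots were in the left 3 strips and 11.3%, 9.64% and 7.84% in the right 3, where each strip held 16.7% of the probes. All 3 spots of the window were in the left 3 strips in 76 of the 204 regions, or 37.3%, compared with 13.4% of all bound regions of that design. For the 33 regions of this design still bound with adriamycin the number was 19, and no region of the 33 had all 3 spots on the right. The second design had no slope from left to right, but its strips 3 and 4, with differences of -0.10, held 20.9% and 20.3% of the spots of lower regions, and the other strips 14.0% to 15.2%.

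**Figure D4:**
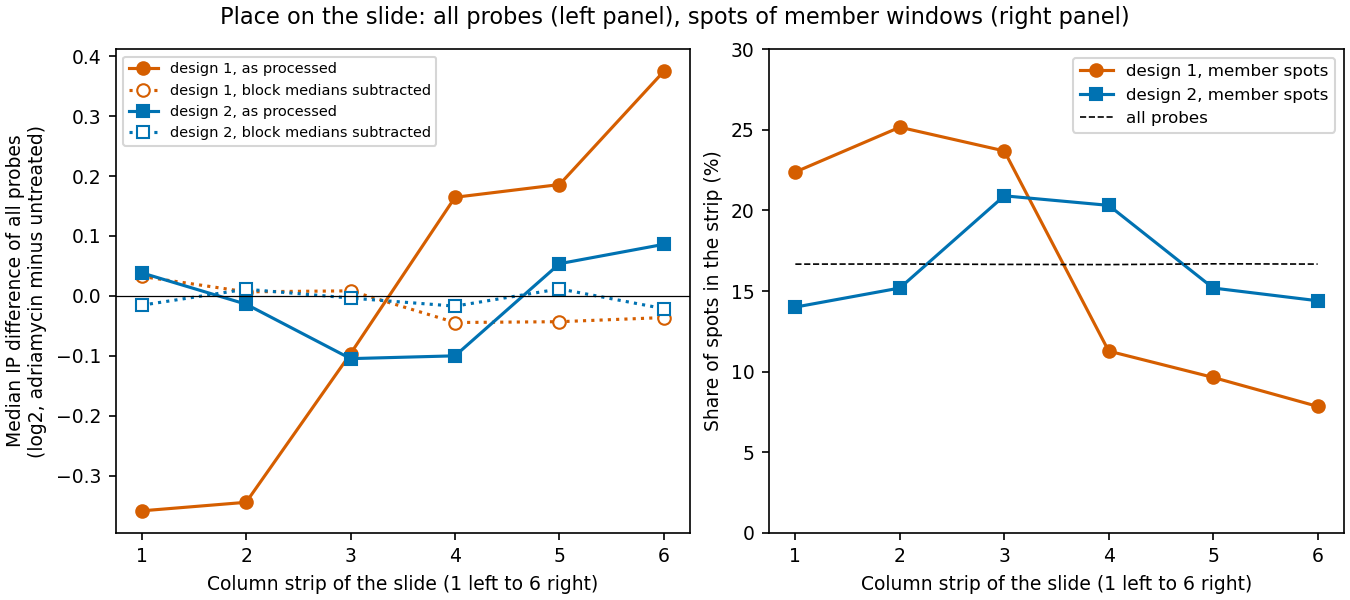
In the left panel, the median difference of the IP channel over all probes (log2, adriamycin minus untreated) in 6 column strips of the slide, as processed and after the median of each block of the slide was subtracted; in the right panel, the share of the spots of lower regions in each strip, in percent, with the share of all probes dashed. On the first design the difference climbs from -0.36 to 0.37 and the share of spots drops from 22.4% to 7.84%; on the second design strips 3 and 4 have the lowest differences and the largest shares, 20.9% and 20.3%.

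To see how far the slope reached the regions, the slide was divided into a grid of blocks, 12 down and 10 across. The median of each block was subtracted from each channel, a step added after the values were seen. Of the 373 regions, 264, or 70.8%, remained lower by 1 or more. Over all bound regions the share was 3.32%, a contrast that the choice of regions favours. By design, 156 of 169 of the regions remained so on the second and 108 of 204 on the first. Of the 33 regions of the first design still bound with adriamycin 6 did, and of the 10 of the second design 7. At chr2:74487432-74501023 the difference became -0.56, at chr5:58001923-58008754 it became -0.65, and at chr6:99233681-99234154 it became -2.15. All 373 differences remained below 0. Never-bound windows lower by 1 or more then made up 2.72% on the first design and 3.06% on the second, and the lower regions called anew 3.43% of those bound.

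**Figure D5:**
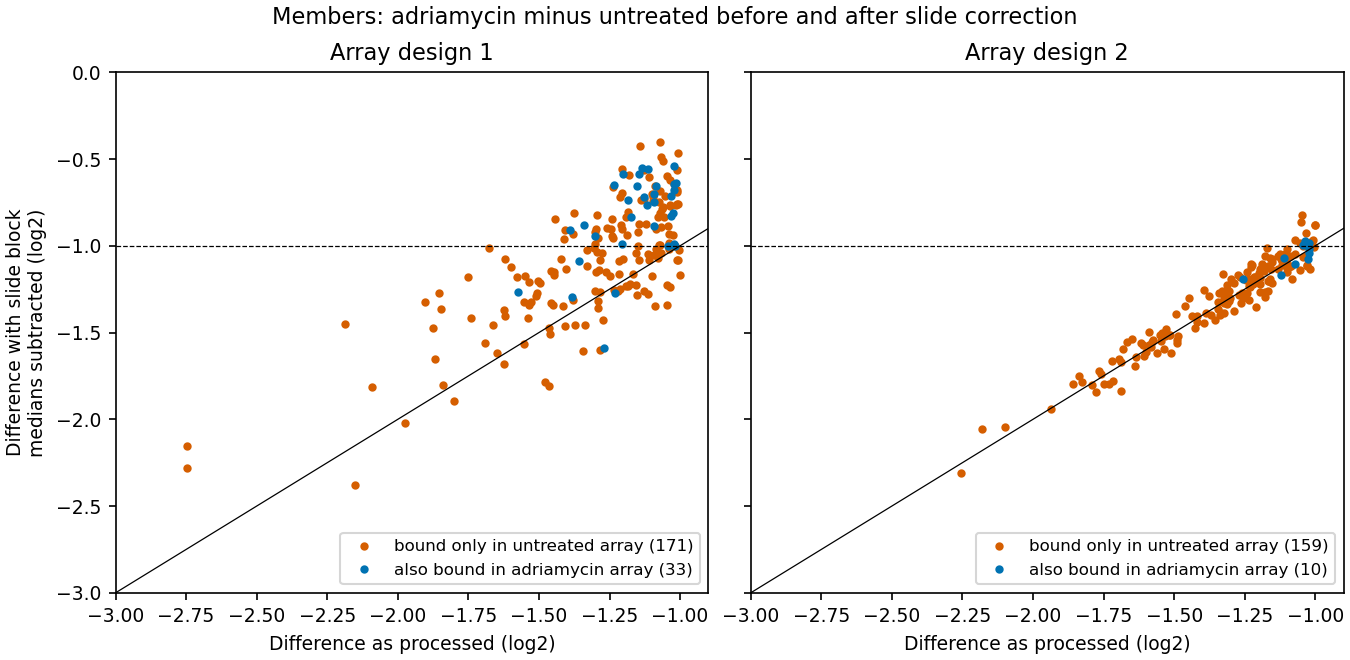
Difference of each of the 373 regions (log2, adriamycin minus untreated) as processed, on the horizontal axis, and with the slide block medians subtracted, on the vertical axis, for both designs; the solid line marks equal values and the dashed line -1. On the second design the points follow the solid line, and on the first most of the 33 regions still bound with adriamycin rise above the dashed line.

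Of the 43 regions still bound with adriamycin, 7 were lower by 1 or more with the common input and with each array's own input, both with and without the slide step. These 7 were picked out after their values were seen. Among them, chr2:172580912-172584076 had the most even probes, at 3.07, 3.57 and 3.36 untreated and 1.80, 2.21 and 2.19 with adriamycin, a difference of -1.27 ± 0.09. Its spots were bright, with IP medians above local background of 393, 658.5 and 1355 units untreated and 191.5, 300.0 and 672 with adriamycin. Input was alike in both arrays, at 1.61 and 1.5. The difference was -1.14 against each array's own input and -1.59 with the slide step. Over the region 16 of 19 probes were lower, 7 of them by 1 or more.

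At chr1:74724367-74727714 the window probes read 1.96, 2.39 and 2.16 untreated and 1.12, 0.97 and 0.34 with adriamycin, a difference of -1.36 ± 0.49, and 16 of 18 probes of the region were lower. At chr5:94117775-94121033 they read 1.62, 3.47 and 2.65 untreated and 0.95, 1.87 and 1.23 with adriamycin, a difference of -1.23 ± 0.49, and 17 of 20 probes were lower. The region chr17:15079172-15086044, from the second design, went from 3.10 ± 0.18 to 2.03 ± 0.21, and 28 of its 36 probes were lower. The window probes of both arrays did not overlap at chr1:74724367-74727714 and chr17:15079172-15086044, and did at chr5:94117775-94121033.

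The other 3 of the 7 were weaker or less even. At chr2:88285242-88286186, 6 probes wide, 4 of 6 IP spots were well above background. Its IP medians above local background were 7, 11 and 7 units untreated and 6, -1.5 and 7 with adriamycin, and its untreated input was -4.18. At chr16:19319598-19321674 the level went from 1.82 ± 0.32 to 0.79 ± 0.47, 5 of 9 probes were lower, and the input went from -2.66 to -1.13. At chr17:33807802-33809504 the differences of the 3 window probes were -0.62, -0.60 and -2.11, so 1 probe carried most of the change.

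Spot values were also reprocessed in 8 ways: own input, background-subtracted medians, the authors' deposited table, loess, equal spread, centring on the mode, slide blocks, and slide blocks with own input. Mode centring moved every difference of a design by the same amount, here downward, so it could drop no region. Equal spread only rescaled each array. That these 2 kept all 373 regions lower by 1 or more therefore says little about the regions. In all 8, 89 were lower by 1 or more. Input was higher with adriamycin in 80 of the 89, compared with 218 of the 373, and a higher input widens the difference over own input. By design they numbered 44 and 45, and 3 of them were still bound with adriamycin: chr1:74724367-74727714, chr2:172580912-172584076 and chr5:94117775-94121033. Over all probes of these 3 regions the median differences were -0.94, -0.77 and -0.71. In 42 of the 89 all spots were well above background. The largest difference among the 89 was at chr8:47434490-47434855 and the next at chr6:99233681-99234154. With both normexp settings added, chr2:172580912-172584076 was the only region of the 373 lower by 1 or more in all of them. Both normexp settings add an offset of 50 units to every spot. The median IP signal of the 373 regions was 18.3 units above local background untreated and 11.5 with adriamycin. The offset shrinks differences of such dim spots, so staying lower in these settings depends on brightness. Windows, thresholds and spot filters were not varied here.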

How the data were processed

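Per the file headers, spots were read with Agilent Feature Extraction 10.1.1.1. The processed signals in the deposited scanner files are intensities after background subtraction and a dye factor for each channel. The authors' deposited table holds log2 ratios, which equalled, in every filled value, those of spot medians less local background, IP over input (231014 and 231636 on design 1, 234099 and 234830 on design 2; tolerance 1e-06). It is not centred, with medians of -0.94, -1.00, -0.93 and -0.45.

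Control spots, flagged spots and probes without a position were left out, which kept 236817 and 236686 probes. Their log2 processed signals were centred on each array's median, and bound windows within 500 bp of each other were merged. IP signals were well above background for 94.3% to 98.2% of probes, and input signals for 98.8% to 99.6%. Median IP spots stood 24.5, 26.5, 37 and 65 units above local backgrounds of 51 to 54. No comparison was made between designs.

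Python 3.11.15 (numpy 2.4.6, pandas 2.3.3) and, for normexp and loess, limma 3.58.1 in R 4.3.3 were used. The region rule was also run on simulated sites in random noise of the same size at every probe of an array. That simulation held no dim spots and no slope over the slide, so it does not bear on the regions described here. The regions, the rules for naming them and the alternatives were chosen with earlier results of these data known. Named regions were the 10 largest differences with all spots well above background and each probe lower by at least 1, the 5 highest untreated levels, the 5 widest, the 3 on each side of the cut, and the 5 largest differences without spot filters. The slide alternatives, the runs of neighbouring regions and the still-bound regions named last were chosen after seeing the data. Gene lists, motifs and probe sequences were not analysed here.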

Additional observations from a re-analysis of the deposited data

How the results depend on the processing

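No paired analysis was possible because the conditions share no replicate number beyond 1 array each. The count of 373 lower regions became 2877 with each array's own input, 3760 with loess, 623 with equal spread, 136 with background-subtracted medians, 159 with normexp and 18 with normexp on spots without extreme local backgrounds. It became 211 without dim IP spots, 104 and 63 with a binding threshold of 1.5 and 2, 56 with windows of 5 probes, 78 with a required difference of 1.5 and, chosen after seeing the data, 2845 with slide blocks and own input together. By design, background-subtracted medians gave 119 lower regions on the first and 17 on the second. The normexp settings gave 159 and 18 on the first design and 0 on the second in both. The bound regions, 9004 in all, became 3333 and 3584 with the normexp settings, 4124 and 2525 with the higher thresholds and 5276 with 5 probes. The lower share of all regions changed by 1 or more, 16.0%, became 68.5% with own input, 83.7% with loess, 30.3% with the authors' deposited table and 27.5% with equal spread, and 1.43% and 9.53% with the normexp settings (without extreme backgrounds and with all spots), 4.74% with 5 probes, 6.62% with background-subtracted medians, and 6.98% and 6.70% with the thresholds of 1.5 and 2. Of the 373 regions, those lower by 1 or more numbered 198 (of 294 with a value) with background-subtracted medians, 36 and 13 with the normexp settings, 156 (of 279) with the deposited table and 232 with loess. The 36 and 13 regions were all on the first design, and 0 of the 169 on the second stayed in either normexp setting. Both settings add 50 units to every spot, which shrinks differences of dim spots. Without dim IP or input spots, 204 and 233 had a value. Their values do not change in that step, so all of them stay lower by 1 or more. The median difference of the 373 regions, -1.23, became -0.37 with the second normexp setting. Of 352 values of the 26 named regions under alternatives, 11 were above 0. With own input, loess, and slide blocks with own input, chr2:38168080-38176105 stood at 0.12, 0.24 and 0.26 and chrX:131612785-131613421 at 0.58, 0.96 and 0.53. With loess and with slide blocks and own input, chr4:109471479-109478486 stood at 0.092 and 0.18. With normexp, chr4:102570431-102570936, chr4:9601164-9601514 and chr11:77277925-77278953 stood at 0.17, 0.080 and 0.082. The causes were not tested. An alternative without probes that match several places in the genome was not run.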

Other observations

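In 46 of the 373 regions, or 12.3%, the IP spots were, in fluorescence units above local background, no dimmer with adriamycin than without. Over all bound regions the share was 81.5%. None of the 46 was still bound with adriamycin. At chr14:69622328-69627153, a region of 26 probes still bound with adriamycin, the window spots read 1149, 274.5 and 961 units untreated and 1127, 280.5 and 669 with adriamycin. Its level over the common input went from 3.88 ± 0.40 (SD over 3 probes) to 2.76 ± 0.30. Levels are set relative to the array median of the processed signal. On the separate scale of units above local background, the median IP spot of this design was 37 untreated and 65 with adriamycin.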
